A study of Drosophila melanogaster with 3 samples.

Results

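The pericentric windows and chromosome 4 of Drosophila melanogaster held 190 of the 30000 regions that were called for GFP-tagged CG13775 on the pooled libraries. A region was a member if its summit lay on chromosome 4 or on the centromeric side of fixed borders on 4 arms, at 22600000 on X, 22100000 on 2L, 22900000 on 3L and 4200000 on 3R (dm6 assembly). The 190 members split into 112 pericentric regions, with 31 on X, 25 on 2L, 42 on 3L and 14 on 3R, and 78 regions on chromosome 4. They were compared with the 24320 regions on the rest of X, 2L, 3L and 3R. Membership rests on position alone and uses no signal value. Of the 190 members, 23 (12.1%) were also in the optimal list, the peaks that passed the authors' irreproducible discovery rate (IDR) filter, against 19.5% of all pooled regions.

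The series measured where the CG13775 protein sits on chromatin, by chromatin immunoprecipitation and sequencing with an antibody against GFP. All 3 libraries form 1 group. They came from whole embryos of both sexes, 0 to 24 h old, of a transgenic strain that stably expresses CG13775 with GFP at its C terminus, and the labels number these biological replicates 1, 2 and 4. Each library therefore averages over all tissues and embryonic stages, males contribute a single X, and the tagged protein comes from an inserted transgene. An untagged line or input was not analysed here, so binding of the tagged protein cannot be told apart from enrichment of other origin. Read counts are not part of the lists, so depth is unknown.

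Pericentric heterochromatin flanks the centromeres and is rich in repeats and remnants of transposable elements. It is packaged with histone H3 methylated at lysine 9 and the protein HP1a, and nevertheless carries essential genes that are transcribed within it. Chromosome 4, the small dot chromosome, is also largely packaged with HP1a, but its genes lie close together, are interspersed with elements such as INE-1 and 1360, and are bound by the chromosome-specific protein POF. Reads from repeated sequence often cannot be placed at a single position, which lowers what sequencing can see there.

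The sequences at the members that the results turn on are given here first, as the plus strand of the Release 6 (dm6) arms in the RefSeq FASTA. Each runs up to 50 bp to either side of a summit, cut short where an annotated untranslated region begins. The first 3 lie at members of high signal, Hcf is the only one of the 23 optimal members with a searched word, RpL15 represents the ribosomal protein genes in deep heterochromatin, and the 3R peak is a repeat. Capitals mark the word TATCGATA, known as the DNA replication-related element (DRE), and copies of ATTACAT.
Chromosome 4 peak of high signal in every replicate, chr4:424770-424870: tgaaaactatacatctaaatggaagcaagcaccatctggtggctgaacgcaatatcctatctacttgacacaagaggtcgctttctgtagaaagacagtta
PlexA, chr4:1027202-1027302: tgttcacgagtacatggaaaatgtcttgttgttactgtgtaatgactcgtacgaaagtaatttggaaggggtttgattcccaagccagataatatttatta
RpS3A, chr4:67208-67305: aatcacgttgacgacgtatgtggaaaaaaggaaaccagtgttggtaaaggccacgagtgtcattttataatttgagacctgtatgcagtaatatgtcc
Hcf, chr4:359834-359934: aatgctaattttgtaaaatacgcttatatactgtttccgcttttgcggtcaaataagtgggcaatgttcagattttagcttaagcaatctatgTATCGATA
RpL15, chr3L:27267178-27267254: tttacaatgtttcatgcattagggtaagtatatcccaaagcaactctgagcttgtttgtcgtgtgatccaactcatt
Intergenic 3R peak, chr3R:4053033-4053133: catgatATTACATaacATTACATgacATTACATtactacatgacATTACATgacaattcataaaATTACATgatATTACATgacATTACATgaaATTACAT

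The 3R sequence carried 8 copies of ATTACAT in 101 bp. ATTACAT or its reverse complement was found in 12 of 190 members (6.32%) and in 507 of 24320 regions on the rest of the arms (2.08%), and no region on the rest of the arms held more than 2 copies. This word was chosen after the sequence had been seen, so the shares are a description. Median GC content within 50 bp of the summit was 37.6% for members and 41.6% on the rest of the arms. The part of base composition in these shares was not tested. Around the 3R summit 66.2% of the 32-base words occurred only once in the genome, whereas every such word was single-copy at the other 22 optimal members.

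The replicates differed widely in these regions, and replicate 4 stood apart. Each replicate list held 30000 regions. In replicates 1, 2 and 4, 284, 335 and 67 of them were pericentric and 48, 75 and 179 lay on chromosome 4. On the rest of the arms the same lists held 24205, 24221 and 24225 regions. With 30000 regions per list and most of them there, these numbers were close largely by construction. Their closeness therefore does not measure agreement between replicates. Replicate 4 thus listed fewest pericentric regions and most regions of chromosome 4. Results are therefore given for each replicate, and values without replicate 4 follow where the difference depends on it. Signal is the value that the authors' peak caller gave each region and was ranked within a list only.

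Called regions were sparse in both compartments relative to the rest of the same arms. In replicates 1, 2 and 4 the pericentric windows held 24.4, 28.8 and 5.76 regions per Mb of assembled sequence. Chromosome 4 held 36.1, 56.3 and 134 per Mb, against 254 per Mb in each replicate on the rest of the arms. No library overlapped with the rest of the arms in this measure. The mean density was 19.7 ± 12.2 per Mb in the pericentric windows and 75.6 ± 52 on chromosome 4, against 254 ± 0.111 on the rest of the arms (SD, n = 3). The small SD on the rest of the arms follows largely from the fixed list length. The differences of −234 and −178 per Mb had the same sign in 3 of 3 libraries. An exact two-sided sign-flip permutation test over the 3 libraries gave p = 0.25 for each, the smallest p that this test can give with 3 libraries, so it cannot pass a threshold of 0.05 for any comparison here. Without replicate 4 the differences were −227 and −208 per Mb.

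In the pooled list, density was 9.63 per Mb in the pericentric windows and 58.6 per Mb on chromosome 4, against 255 per Mb on the rest of the arms. Much of the pericentric sequence is repeated: 40.2% of its bases started a 32-base word that occurs once in the genome, against 84.4% on chromosome 4 and 94.4% on the rest of the arms. Per Mb of such unique sequence, an alternative chosen after seeing the data, the pericentric density was 0.226, 0.267 and 0.0533 times that of the rest of the arms in replicates 1, 2 and 4. For chromosome 4 the ratios were 0.159, 0.248 and 0.592. All 6 ratios stayed below 1. How far mapping sets the remaining difference was not tested.

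**Figure D1:**
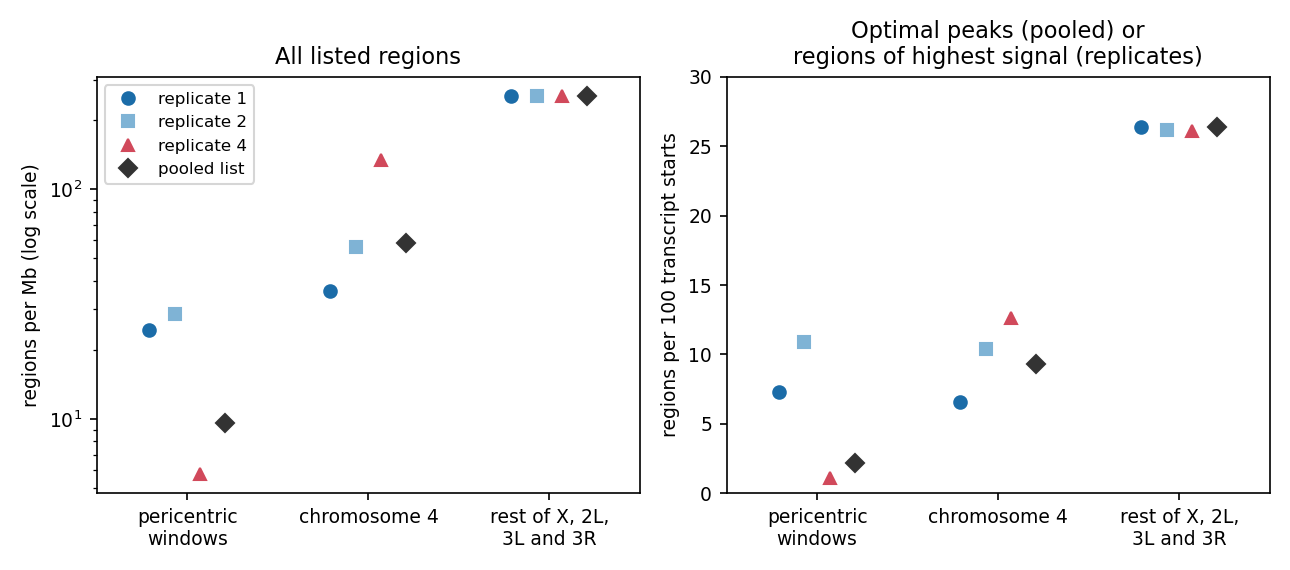
Regions per Mb (left, log scale) and peaks of high signal per 100 transcript starts (right) in the pericentric windows, on chromosome 4 and on the rest of X, 2L, 3L and 3R, with a point for each replicate list and the pooled list. Every point of both compartments lies below those of the rest of the arms, and replicate 4 is the lowest point in the pericentric windows and the highest on chromosome 4.

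Gene density differs between the compartments. The pericentric windows hold 23.6 transcript starts (TSSs) per Mb and chromosome 4 holds 137, against 191 on the rest of the arms. To allow for this, peaks of high signal were counted per 100 TSSs. For the pooled libraries these were the peaks of the optimal list. For each replicate they were its 5862 regions of highest signal, as many as there are optimal peaks and 19.5% of its list by construction. The pericentric windows had 7.3, 10.9 and 1.09 such peaks per 100 TSSs in replicates 1, 2 and 4. Chromosome 4 had 6.56, 10.4 and 12.6, against 26.4, 26.2 and 26.1 on the rest of the arms. Every value of both compartments was below every value of the rest of the arms. The mean differences were −19.8 ± 4.93 and −16.4 ± 3.19 per 100 TSSs (SD, n = 3; exact sign-flip permutation p = 0.25 for each, two-sided). These counts include peaks away from TSSs. With only peaks within 500 bp of a TSS, the differences were −8.07 ± 5.36 and −8.02 ± 2.08. The pericentric windows then had 5.84, 10.2 and 0.73 per 100 TSSs in replicates 1, 2 and 4 and chromosome 4 had 2.73, 7.1 and 7.1, against 13.1, 13.4 and 14.5 on the rest of the arms.

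In the pooled list, pericentric regions were seldom optimal peaks, whereas the share on chromosome 4 was near that of the rest of the arms. Of the 112 pericentric regions, 6 (5.36%) were optimal peaks, with an exact (Clopper-Pearson) 95% interval of 1.99 to 11.3% that covers counting error over regions only. Chromosome 4 had 17 of 78 (21.8%; 13.2 to 32.6%), the rest of the arms had 4816 of 24320 (19.8%), and all pooled regions had 19.5%. If a region counts as soon as it touches an optimal peak by 1 bp, the shares were 9.82% in the pericentric windows and 26.9% on chromosome 4, against 24.9% on the rest of the arms and 24.6% of all pooled regions. In the replicates, 7.04, 8.96 and 4.48% of pericentric regions were among the regions of highest signal in replicates 1, 2 and 4, and 25, 25.3 and 12.8% of the chromosome 4 regions were. The share on the rest of the arms was 19.9, 19.7 and 19.7%, close to the 19.5% that the cut sets for a whole list. The pericentric share was thus lower in 3 of 3 libraries, by −13 ± 2.22 percentage points (SD of the difference; exact sign-flip permutation p = 0.25). On chromosome 4 the share was higher in replicates 1 and 2 and lower in replicate 4, and the mean difference of 1.28 ± 7.04 points was smaller than the spread (exact permutation p = 1). It was 5.34 points without replicate 4, −0.623 without replicate 1 and −0.879 without replicate 2.

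Pericentric regions ranked lower by signal, which is not independent of the share above. The replicate shares are a cut on the same ranking. Among the members, optimal peaks had signals of at least 151 and the others of at most 147. The median pericentric region sat at percentile 36, 34.2 and 49 of its list in replicates 1, 2 and 4, against a mean of 50.4 ± 0.23 on the rest of the arms (SD, n = 3). The latter lies near the middle of a list largely by construction, since most regions lie there. The pericentric median was lower in 3 of 3 libraries, by −10.7 ± 8.3 percentile points (exact sign-flip permutation p = 0.25). For chromosome 4 the medians were at 54.7, 46.2 and 49.1, a mean difference of −0.407 ± 4.22 that lies within the spread (exact permutation p = 0.75) and was 1.51 without replicate 2.

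Within the pericentric windows the bin next to the border with euchromatin was the densest in every list. The first 500 kb inside the 4 borders held 79 of the 112 pooled regions (70.5%) and 5 of the 6 optimal peaks. In replicates 1, 2 and 4 it held 145 of 284 (51.1%), 151 of 335 (45.1%) and 57 of 67 (85.1%), so most pericentric regions of replicate 2 lay deeper. Pooled density there was 39.5 per Mb, with 68.6 TSSs per Mb, against 139 regions and 179 TSSs per Mb in the first 500 kb outside. The next 500 kb inward held 5 regions, or 2.58 per Mb, with 29.9 TSSs per Mb. Replicates 1 and 2 listed 20.6 and 26.3 regions per Mb in that bin, and replicate 4 listed 1.03. The sixth optimal peak, at RpL15, lay more than 4 Mb inside.

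The regions nearest to each border show where the rule divides. On X the nearest summit inside had a signal of 95.4, and the nearest outside had 109. The pair had 109 inside and 41.1 outside on 2L, 221 and 56.8 on 3L, and 52.9 and 169 on 3R. The inside region on 3L and the outside region on 3R were optimal peaks. With all borders moved 500 kb away from the centromere, the pericentric difference in the share of high signal was −7.38 points in place of −13. With borders moved 500 kb towards the centromere, the difference in median rank was −16.5 percentile points in place of −10.7. Neither move turned a sign in density, in that share or in median rank.

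**Figure D2:**
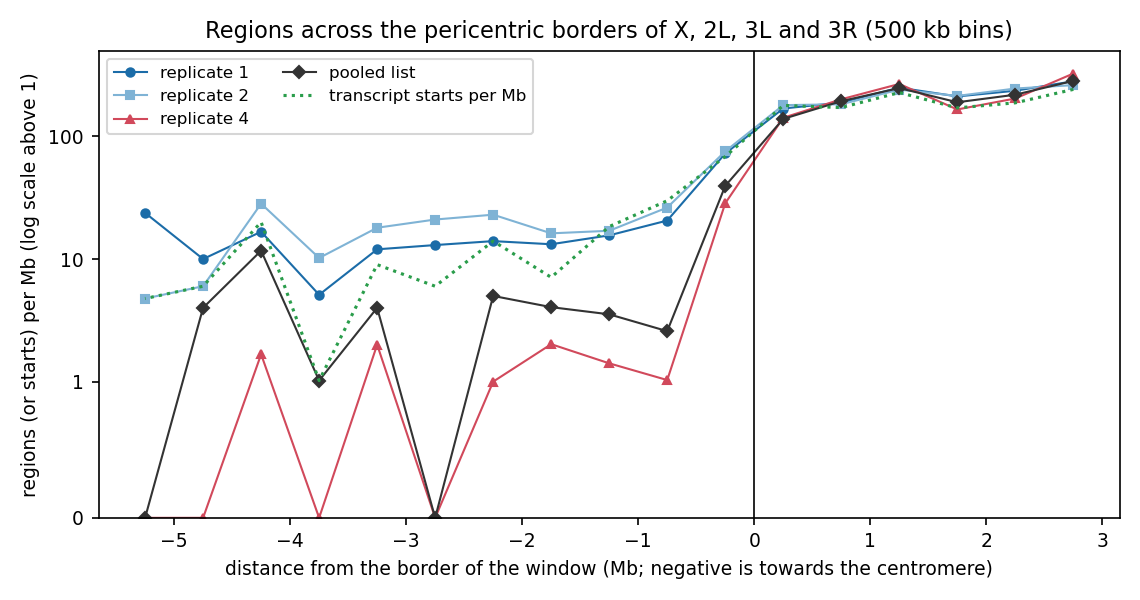
Regions per Mb in 500 kb bins around the borders of the 4 pericentric windows, for each replicate list and the pooled list, with transcript starts per Mb as a dotted line (vertical axis logarithmic above 1). Density drops across the border in every list; deeper inside, replicates 1 and 2 stay above the pooled list and replicate 4 in every bin.

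The 6 optimal peaks of the pericentric windows included 3 at ribosomal protein genes, and their signals spanned only 151 to 227, with a median of 209 against 268 on the rest of the arms. RpL5, RpL10 and RpL15 encode proteins of the large ribosomal subunit. The RpL5 summit (chr2L:22536713) lay 26 bp upstream of a start of the gene and inside an annotated 5′ UTR, with a signal of 227. It ranked 2169 in replicate 1 and 2146 in replicate 2, and replicate 4 had no overlapping region. The RpL10 summit (chr3L:23095469) lay 2 bp inside the gene, with a signal of 213 and ranks of 2139, 2835 and 6291 in replicates 1, 2 and 4. The RpL15 summit (chr3L:27267228, sequence above) lay 27 bp upstream, with a signal of 202 and ranks of 2857, 3781 and 6406. Its peak also lies within 500 bp of snoRNA:Me18S-G1358c. All 3 ribosomal protein peaks thus ranked lower in replicate 4, or were missing from it, than in the other two.

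The other pericentric optimal peaks had no coding start within 500 bp. A peak on X (chrX:23007533; signal 205) lay 139 bp upstream of the antisense transcript asRNA:CR45009, with ranks of 4506, 3732 and 4847 in replicates 1, 2 and 4. The peak just inside the 3L border (chr3L:22909960; signal 221) lay 531 bp upstream of CG12768 and ranked 3698, 3079 and 4460. Both were listed in every replicate. The repeat peak on 3R (chr3R:4053083; signal 151) lay 24856 bp from the nearest start, that of CG42402, and ranked 4334 and 2983 in replicates 1 and 2. Replicate 4 had no region there, and its closest summit was 121968 bp away. This peak sat at rank 5859 of 5862 in the optimal list.

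The optimal peaks at the 3 pericentric ribosomal protein genes were weaker than those at most such genes elsewhere. Of 5 ribosomal protein genes in the windows and on chromosome 4, 4 (80%) had an optimal peak within 500 bp of a start. They were RpL5, RpL10 and RpL15 in the pericentric windows and RpS3A on chromosome 4. The share was 88.3% for ribosomal protein genes elsewhere and 26.2% for all protein-coding genes. RpL21, the remaining gene, had a pooled region with a signal of 76.9. The 4 optimal signals had a median of 220 and a range of 202 to 523. Of 77 ribosomal protein genes elsewhere, 68 had an optimal peak, with a median signal of 609 and a range of 162 to 1761. Signals under 300 were found at 3 of the 4 genes in the windows and at 7 of the 68 elsewhere. RpS3A had the signal of 523. All 6 optimal peaks of the pericentric windows spanned 151 to 227, so low signal there was not particular to ribosomal protein genes. This comparison was not among those planned.

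Chromosome 4 carried stronger peaks than the pericentric windows. Its 17 optimal peaks had signals of 163 to 809, with a median of 288 against 268 on the rest of the arms. Above 400 were 7 of 17 (41.2%) on chromosome 4, none of 6 in the pericentric windows, and 27.6% on the rest of the arms. Of the 17, 10 lay within 500 bp of a TSS, all upstream of the nearest start. Away from TSSs, 5 were intergenic, 1 was intronic and 1 lay in a 3′ UTR. The peaks at Sox102F and gw, counted among the 10, lay in an intron of their gene, upstream of an internal start.

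Both plexin genes had optimal peaks at a start. PlexA and PlexB encode the receptors of semaphorins, which guide growing axons. PlexA had 2 optimal summits, at chr4:1027252 (signal 608, 151 bp upstream, sequence above) and chr4:1027456 (signal 163, 355 bp upstream and also near asRNA:CR44031). The stronger ranked 595, 641 and 1226 in replicates 1, 2 and 4, and all 3 replicates placed their own summit within 30 bp of it. PlexB had a peak 109 bp upstream (chr4:43887; signal 174) that ranked 4169 in replicate 2 and 8961 in replicate 4, with no region in replicate 1. PlexA was thus shared by all replicates and PlexB by a pair of them.

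A further 5 promoter peaks of chromosome 4 lay at Sox102F, gw, Hcf, Gyf and the starts of CG46466 and Slip1, the last listed in replicate 4 alone and described below. Sox102F, which encodes a Sox-family HMG-box transcription factor, had a signal of 597 (chr4:807614; 267 bp upstream of the nearest start) and ranks of 733, 1101 and 817. The gene gw, which encodes the GW182 protein of microRNA-mediated silencing, had a signal of 419 (chr4:660114; 131 bp upstream of the nearest start) and ranks of 1379, 3148 and 1218. Both ranked high in all 3 replicates. Hcf, the gene of host cell factor, a chromatin-associated cofactor, had a signal of 242 (chr4:359884; 54 bp upstream), with ranks of 2909 and 5422 in replicates 2 and 4. Gyf, named for its GYF domain, had a signal of 197 (chr4:867038; 13 bp upstream), with ranks of 3116 and 5333 in replicates 2 and 4. Neither had a region in replicate 1, whose nearest summits were 30648 and 37413 bp away.

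RpS3A, a gene of the small ribosomal subunit, had the strongest promoter peak that a replicate missed. Its main summit (chr4:67255; signal 523; 48 bp upstream, sequence above) ranked 1038 in replicate 2 and 1473 in replicate 4. A second optimal summit lay at chr4:67456 (signal 191), 249 bp upstream, and overlaps the same replicate regions. Replicate 1 listed nothing closer than 64306 bp. In the first 250 kb of chromosome 4, where RpS3A lies, replicates 1, 2 and 4 listed 2, 13 and 27 regions. In the next 250 kb they listed 21, 16 and 50, so replicate 1 was lowest in the first bin and between the others in the second.

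Away from promoters, the most reproducible peak of chromosome 4 was intergenic. It lay 1247 bp from lncRNA:CR43437 (chr4:424820; sequence above), had a signal of 763 and ranked 416, 763 and 556 in replicates 1, 2 and 4. The 3 replicate summits fell within 4 bp of the pooled summit. A peak 3924 bp upstream of zfh2, a zinc-finger homeodomain transcription factor gene, had a signal of 407 (chr4:497886) and ranks of 1735, 2421 and 1169. One 558 bp from Asator, which encodes a tau-tubulin kinase, had a signal of 288 (chr4:489552) and ranks of 3319, 5227 and 2225. These 3 intergenic peaks were among the regions of highest signal in every replicate.

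The other distal peaks varied more. One 3797 bp from mir-9385 (chr4:404562; signal 180) ranked 4954 in replicate 1, 4010 in replicate 4 and only 15764 in replicate 2. One 4480 bp from fuss, a Ski/Sno-family gene (chr4:982969; signal 354), ranked 1541 and 2161 in replicates 1 and 4 and was missing from replicate 2.

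The strongest peak of chromosome 4 rested on a single replicate. It lay in a 3′ UTR shared by Cals (calsyntenin) and sv (the Pax2 gene shaven), at chr4:1113311, with a pooled signal of 809 and rank 451. In replicate 4 it had rank 417 and a signal of 394. Replicates 1 and 2 listed no overlapping region, and their nearest summits were 3882 and 9272 bp away. A further 2 optimal peaks were listed by replicate 4 alone. The first, in an intron of asRNA:CR43957 and 2159 bp from ci, the transcription factor gene of the Hedgehog pathway (chr4:59200; signal 219), ranked 1914 there. The second, at the starts of CG46466 and Slip1 (chr4:663297; signal 206), ranked 4815. Without those 3 peaks, 14 optimal peaks on chromosome 4 were listed by at least 2 replicates.

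**Figure D3:**
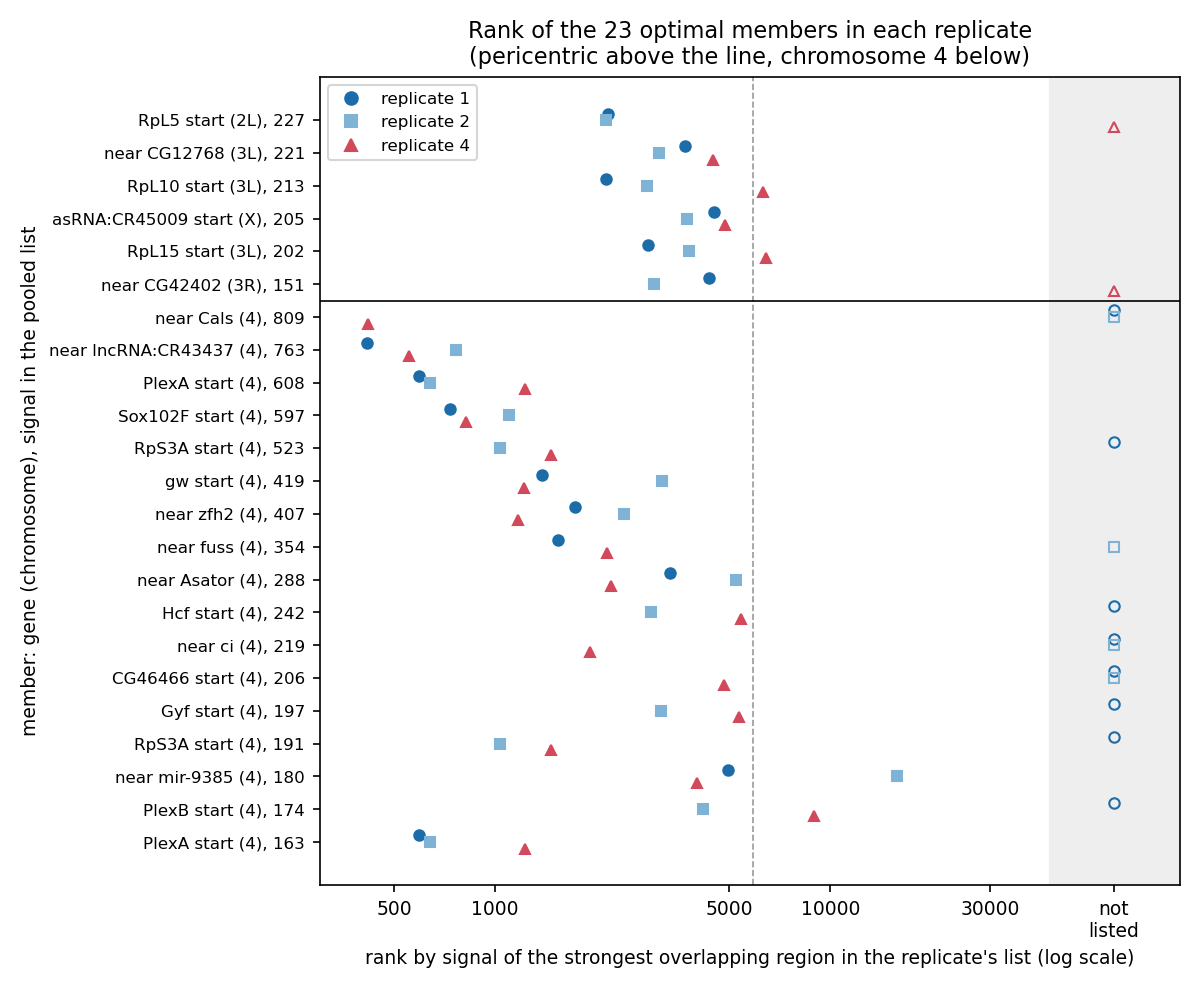
Rank by signal of the strongest overlapping region in each replicate list for the 23 optimal members, ordered by pooled signal, with pericentric members above the line, chromosome 4 below it and hollow symbols for a replicate without a region (dashed line, rank 5862). Pericentric members rank weakest in replicate 4 or are missing there, whereas on chromosome 4 all 17 are listed in replicate 4 and 8 are missing in replicate 1.

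Support by the replicates was lower than on the rest of the arms. In the pooled list, 34 of 112 pericentric regions (30.4%) and 20 of 78 on chromosome 4 (25.6%) overlapped a region of all 3 replicate lists by at least 1 bp, against 48.7% on the rest of the arms. Among optimal peaks the counts were 4 of 6 and 8 of 17, against 97.9% on the rest of the arms. The lists that gave the support differed. Replicates 1, 2 and 4 overlapped 99, 82 and 53 of the 112 pericentric regions, and 32, 42 and 73 of the 78 on chromosome 4. The pooled list was made from the same libraries, so this is a description and no test was made.

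Many replicate regions had no counterpart in the pooled list. This was so for 186 of 284, 256 of 335 and 15 of 67 pericentric regions in replicates 1, 2 and 4, and for 18 of 48, 37 of 75 and 100 of 179 on chromosome 4. A counterpart was found for 34.5, 23.6 and 77.6% of the pericentric regions and for 62.5, 50.7 and 44.1% of those on chromosome 4, against 72.1, 66.7 and 82.4% on the rest of the arms. Direct overlap between replicates varied with the pair. Of the pericentric regions of replicate 1, 41.9% overlapped replicate 2 and 15.8% overlapped replicate 4, against 57.9 and 58% on the rest of the arms. Of those of replicate 4, the shortest list there, 65.7% overlapped replicate 1 and 53.7% replicate 2, against 65.5 and 61.4% on the rest of the arms. On chromosome 4, 54.2 and 75% of the regions of replicate 1 overlapped replicates 2 and 4. The shares were 32 and 60% for replicate 2 with replicates 1 and 4, against 58.8 and 55% on the rest of the arms. For the regions of replicate 4 on chromosome 4, the longest list there, they were 22.9% with replicate 1 and 29.6% with replicate 2.

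Of the 167 members below the optimal list, 73 (43.7%) lay within 500 bp of a TSS in the pooled list, against 27.2% of such regions on the rest of the arms. The 3 of highest signal in each window and on chromosome 4 make 15 regions, of which 8 lay within 500 bp of a TSS. On 2L they were CycK, which encodes cyclin K (133), Nubpl, an assembly factor of respiratory complex I (116), and a region 1219 bp from Tim23, a gene of the mitochondrial import machinery (115). On 3L a region 1003 bp into l(3)80Fg (147), CG40228 (142) and the start of l(3)80Fg (140) came first. On X they were mir-2491 (130), an intron of fog, whose secreted product drives cell shape change at gastrulation (122), and the shared promoter of Rab21, a small GTPase gene, and Coa7 (120). On 3R signals were lower, at 87.8 for an intergenic region, 69.1 at beta-Man (beta-mannosidase) and 59.9 in an intron of Pzl. On chromosome 4 the leading regions lay 2027 bp from snoRNA:CD-24 (143), in an intron of Asator (140) and at the divergent starts of apolpp, an apolipophorin gene, and Zyx, the gene of zyxin (139).

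Nearness to a TSS depended on the replicate. Of the pericentric regions, 23.6, 23.9 and 52.2% lay within 500 bp of a TSS in replicates 1, 2 and 4. On chromosome 4 the shares were 35.4, 37.3 and 40.8%, against 27.3, 26.8 and 35.8% on the rest of the arms. The pericentric share was below that of the rest of the arms in replicates 1 and 2 and above it in replicate 4, and the mean difference of 3.29 ± 11.4 points was smaller than the spread (exact sign-flip permutation p = 1). Without replicate 4 it was −3.29 points. On chromosome 4 the share was higher in 3 of 3 libraries, by 7.9 ± 2.79 points (exact permutation p = 0.25). The difference was 3.6 points at 250 bp and −3.95 points among the upper 50% of the regions of high signal. In the pooled list the shares were 48.2% in the pericentric windows and 42.3% on chromosome 4, against 32.1%.

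Pericentric regions of high signal lay mostly at TSSs. Of those among the 5862 of highest signal, 16 of 20, 28 of 30 and 2 of 3 in replicates 1, 2 and 4 lay within 500 bp of a TSS. Chromosome 4 had 5 of 12, 13 of 19 and 13 of 23. On the rest of the arms the shares were 49.5, 51.2 and 55.6%.

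Counted by gene, few pericentric genes had an optimal peak. A summit within 500 bp of a start was found for 3 of 108 protein-coding genes in the pericentric windows (2.78%; exact 95% interval 0.577 to 7.9%) and for 9 of 80 on chromosome 4 (11.2%; 5.28 to 20.3%). The rest of the arms had 27% and all protein-coding genes had 26.2%. With any pooled region the shares were 35.2% and 27.5%, against 54.5% on the rest of the arms and 54% of all protein-coding genes. In replicates 1, 2 and 4, the regions of highest signal marked 13.9, 23.1 and 0.926% of pericentric coding genes. On chromosome 4 they marked 3.75, 16.2 and 15%, against 25.8, 26 and 28% on the rest of the arms and 25, 25.5 and 27.4% of all protein-coding genes. The pericentric share in replicate 2 thus came within 3 percentage points of the rest of the arms, whereas in replicate 4 a single gene was marked.

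That gene was Clamp, whose zinc-finger product binds GA repeats, with ranks of 5114, 4904 and 4543 in replicates 1, 2 and 4. These ranks do not belong to 1 shared peak. The summits of replicates 1 and 2 lay 64 and 14 bp from the pooled summit. No region of replicate 4 overlapped the pooled region, and its nearest summit was 674 bp away. In all, 31 of 108 pericentric coding genes (28.7%) were marked in at least 1 replicate, against 32.7% on the rest of the arms. Of the 31, 30 (96.8%) were marked in replicate 1 or 2 and not in replicate 4. On the rest of the arms this held for 14.3% of marked coding genes. Both replicates 1 and 2 marked 9, among them RpL5, RpL10, RpL15, CycK, l(3)80Fg, vtd (the cohesin subunit Rad21) and UQCR-11 of respiratory complex III. On chromosome 4, 17 of 80 coding genes (21.2%) were marked in at least 1 replicate, 12 of them in replicate 4 and 4 in replicate 4 alone. Sox102F, gw and PlexA were marked in all 3. On the rest of the arms, 2302 of 3564 marked genes (64.6%) were marked in all 3 replicates, against 3.23% in the pericentric windows and 17.6% on chromosome 4.

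**Figure D4:**
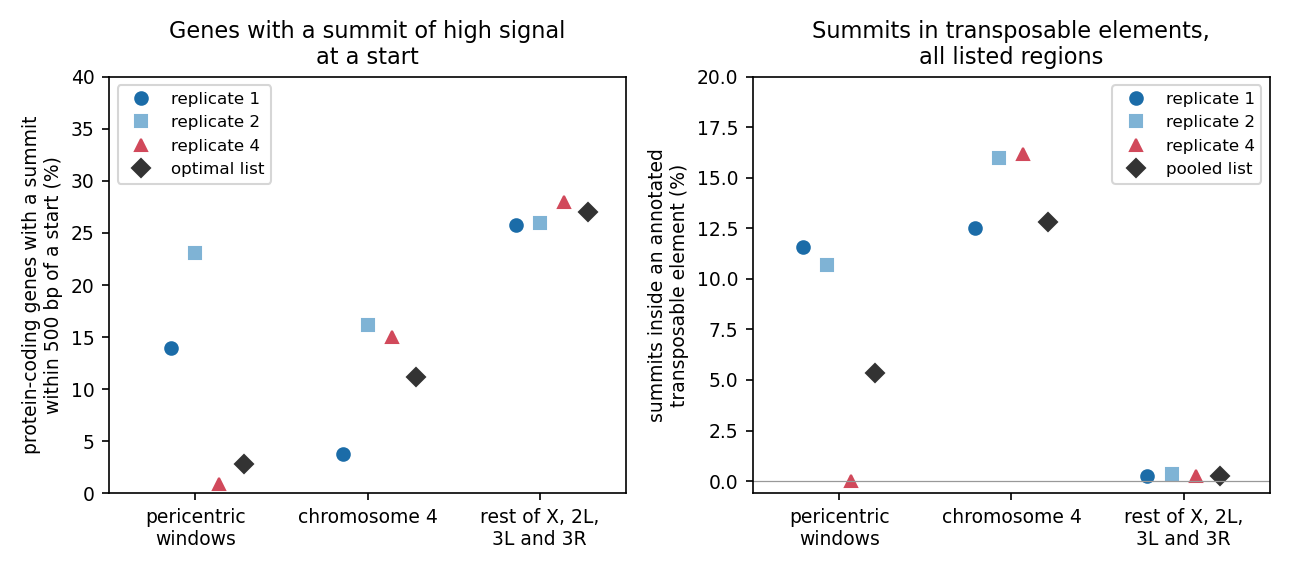
Share of protein-coding genes with a summit of high signal within 500 bp of a start (left) and share of all summits inside an annotated transposable element (right), for each replicate list and the optimal or pooled list, in the pericentric windows, on chromosome 4 and on the rest of X, 2L, 3L and 3R. In the pericentric windows replicate 4 has the lowest point in both panels, and summits in elements stay near 0 on the rest of the arms.

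Of 14 listed heterochromatin genes in the windows, RpL5 and RpL15 (14.3%) had an optimal peak at a start, against 26.2% of all protein-coding genes, and 8 (57.1%) had any pooled region there, against 54%. The regions of highest signal marked 4 of them (28.6%) in replicate 1, 7 (50%) in replicate 2 and 0 in replicate 4, which allows a share of up to 21.4%. The shares of all protein-coding genes were 25, 25.5 and 27.4%, so the share in replicate 1 was near that of all genes. Of all 108 coding genes in the pericentric windows, 2.78% had an optimal peak and 35.2% any pooled region at a start. The replicates marked 13.9, 23.1 and 0.926% of those 108. Shares of the listed genes were thus above those of their own windows except in replicate 4. Replicate 2 marked the classical pericentric genes lt (light, a vesicle trafficking factor; rank 2793) and cta (concertina, a G protein alpha subunit; rank 4385), as well as Dbp80 (a DEAD-box helicase; rank 3757). None of the 3 had a pooled region at a start, and the nearest pooled summits were 143859, 86838 and 11889 bp away. Pooled regions below the optimal list lay at su(f), an mRNA 3′-end processing factor (117), at ATbp (116), at stnA and stnB, the stoned genes of synaptic vesicle recycling (115, shared), at vtd (111) and at Myo81F (47.7). Snap25, Parp1 and nrm had no pooled summit within 500 bp of a start.

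Among 34 listed genes of chromosome 4, 6 (17.6%) had an optimal peak at a start, against 26.2% of all protein-coding genes, namely PlexA, PlexB, Sox102F, gw, RpS3A and Hcf. Any pooled region was found at 13 (38.2%), against 54%. Below the optimal list these were Zyx (139), the Pax6 gene ey (115), ATPsynbeta of the mitochondrial ATP synthase (103), Asator (95.5), ci (80.4), MED26 of the Mediator complex (79.5) and zfh2 (56). Replicates 1, 2 and 4 marked 3 (8.82%), 10 (29.4%) and 8 (23.5%) of the 34 genes, against 25, 25.5 and 27.4% of all protein-coding genes. Of all 80 coding genes on chromosome 4, 11.2% had an optimal peak and 27.5% any pooled region at a start. The replicates marked 3.75, 16.2 and 15% of those 80. Each share of the listed genes was thus above that of their own chromosome. Replicate 2 alone marked pho, which encodes a DNA-binding Polycomb group protein (rank 2052), and its nearest pooled summit was 68317 bp away. Replicate 4 alone marked pan, the TCF gene of Wnt signalling (rank 5009), and CaMKII, a calcium-dependent kinase gene (rank 4224). The remaining 21 listed genes had no pooled summit within 500 bp of a start, among them the developmental regulators toy, sv, lgs, onecut and dati.

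Transposable elements held a larger share of these summits than elsewhere, below their share of the bases. In the pooled list, 6 of 112 pericentric summits (5.36%) and 10 of 78 on chromosome 4 (12.8%) lay in an annotated element, against 64 of 24320 (0.263%) on the rest of the arms. Elements cover 15.1% of the bases in the pericentric windows, 25.1% on chromosome 4 and 4.08% on the rest of the arms. INE-1 held 4 of the 6 pericentric summits and 6 of the 10 on chromosome 4, and 1360 held 1 and 4. The highest signal among these 16 was 139, in an INE-1 copy 3142 bp from zfh2, and none of the 23 optimal members lay in an element, which allows a share of up to 13%. In replicates 1 and 2, 33 of 284 and 36 of 335 pericentric summits lay in elements, whereas replicate 4 had 0 of 67, which allows up to 4.48%. On chromosome 4 all 3 replicates listed such summits, with 6 of 48, 12 of 75 and 29 of 179.

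Mappability followed the replicates as well. The 201 bp around the summit were free of repeated 32-base words at 66.2, 66.9 and 92.5% of the pericentric regions in replicates 1, 2 and 4. On chromosome 4 the shares were 95.8, 89.3 and 87.2%, against 98.3, 98.2 and 98.1% on the rest of the arms. Pericentric regions free of such words were also fewest in replicate 4, at 188, 224 and 62 in replicates 1, 2 and 4. The part of repeated sequence in the difference between replicates was not tested.

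The short words sought at summits were rare. Searched on both strands within 50 bp of the summit, TATCGATA was present in 2 of 190 members (1.05%) and in 1.03% of regions on the rest of the arms. GAGAG, bound by GAGA factor, was present in 17 members (8.95%) against 11.9%, CACGTG, an E-box, in 2 (1.05%) against 1.37%, and TGCGGATG in 1 (0.526%) against 1.01%. GGTCACACT, the core word of the factor M1BP, was present in none, which allows up to 1.58%, against 0.604%. Among the 23 optimal members the single match of these words was TATCGATA at Hcf (4.35%), in the sequence above. For each word absent from the 23, a share of up to 13% is allowed. Optimal peaks on the rest of the arms held TATCGATA in 2.08%, GAGAG in 9.18% and TGCGGATG in 2.01%. GGTCACACT was present in 0.893% of them and CACGTG in 0.872%.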

How the data were processed

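The lists give called regions from anti-GFP chromatin immunoprecipitation in 3 replicates. The authors deposited for dm6 a list of peaks and background per replicate and for the pooled libraries, and an optimal list after the IDR filter. Each region has a signal value as deposited by the authors, of unstated scale, and a q-value as −log10 q, deposited by the authors with a ceiling of 3.97 in the pooled list and not used for ranking. The peak caller is not given in the sources used here. The named control file, of unstated kind, was not analysed here.

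Summits were assigned by position, with Ensembl release 115 genes and element annotation of BDGP6 and the RefSeq Release 6 FASTA, whose 6 arms in use have the dm6 lengths. N bases were left out of lengths. A gene was marked if a summit lay within 500 bp of a start, and regions were shared from 1 bp of overlap. Libraries were the units of exact sign-flip permutation tests, and none was run over regions. If replicates share material that the labels do not name, p-values measure only the spread between these samples. Python 3.11.15, numpy 2.4.6, pandas 2.3.3, scipy 1.17.1 and matplotlib 3.10.9 were used, and the counting was tested on simulated data.

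Genes named are those at optimal members or nearest to them, the 3 regions of highest signal below the optimal list per window, and the listed genes. Genes singled out by replicate were chosen from their values. The members, lists and words were chosen with earlier results of these data known. Of the listed symbols, tim23 and Caps matched no gene as spelled. The annotation has Tim23 in the 2L window, which the 14 listed heterochromatin genes there therefore leave out, and 6 heterochromatin genes lie on 2R, outside the windows. Alternatives moved borders, TSS distance, overlap and the number of regions of high signal, and left out replicates. Others used only protein-coding genes, only peaks near a TSS or unique sequence, counted repeated intervals once, or left out summits in elements. Counts on chromosome 4 were also taken from the dm3 lists, with 63 pooled regions and 16 optimal peaks against 78 and 17.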

Additional observations from a re-analysis of the deposited data

Results flagged for a closer look

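The dm3 assembly, used above only for alternative counts on chromosome 4, has separate arms for heterochromatin (names ending in Het), which served for no comparison. Called regions were present there: 31 in the pooled list, and 106, 137 and 13 in the lists of replicates 1, 2 and 4. These dm3 lists differ in length, with 30000 regions pooled and 24843, 24407 and 30000 in replicates 1, 2 and 4. The shares were 0.103% in the pooled list and 0.427, 0.561 and 0.0433% in replicates 1, 2 and 4. Among the optimal peaks of dm3 a single one lay on such an arm, 3LHet. No control library was analysed here to set beside the counts. Replicate 4 had the fewest, as in the pericentric windows of dm6, and the part that repeated sequence has in these counts was not tested.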

How the results depend on the processing

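Of 89 alternative values, 8 turned the sign and 2 counts moved by over 1.5 times. The other 79 kept the sign of a difference, or stayed within 1.5 times for a count and within the interval for a share, so differences among them could change in size. On chromosome 4 the difference in the share of high signal (1.28 points) was −0.382 with only the upper 50% of the optimal number by signal and ranged from −0.879 to 5.34 when 1 replicate was left out. The difference in median rank on chromosome 4 (−0.407) ranged from −2.67 to 1.51 when 1 replicate was left out. With only the upper 50% by signal, the differences in peaks per 100 TSSs were −12.1 in the pericentric windows and −8.85 on chromosome 4, by construction, since fewer peaks were counted. For nearness to a TSS the pericentric difference (3.29 points) was −0.605 with borders moved 500 kb towards the centromere, −0.441 at 1000 bp, and −3.29 to 6.8 when 1 replicate was left out. On chromosome 4 (7.9 points) it was −3.95 among that upper 50%, and 14.1 without summits in transposable elements, chosen after seeing the data. Pericentric regions supported by all 3 replicates were 3 in place of 34 with the lists restricted to high signal, and those of chromosome 4 were 8 in place of 20, by construction, since fewer regions were compared. In each other case the cause was not tested. Nearness to a TSS among the upper 50% gave no pericentric value, since a replicate has no such region. Each difference was taken within a library. Depth is unknown, and the sign-flip test cannot pass 0.05 with 3 libraries.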
